A study of Mus musculus with 38 samples.

Results

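Ear1, Ear2, Ear6, Ear10, Rnase4 and Ang encode small secreted ribonucleases of the ribonuclease A family, and their transcripts were followed across 4 macrophage populations of the resting mouse lung. The 6 genes were taken by symbol, after the Ensembl identifiers of the count table had been matched to mouse gene names, and they are 6 of the 43346 genes in that table. All 6 had reads and passed the filter on low counts, although Ear1, Ear6 and Ear10 passed it through alveolar macrophages alone. The study set the interstitial macrophages of the lung apart from one another and from the macrophages of the airspaces. RNA came from naive C57Bl/6 mice of 8 to 10 weeks, without any transgene or treatment.

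Macrophages of the lung tissue were enriched for the phagocytic receptor MerTK and sorted as CD64+ CD11b+ cells that lacked CD24, CD43, Siglec F, Ly6G and the lymphoid surface proteins B220, CD3 and NK1.1. IM1 cells had low MHC class II and high CD206 (the mannose receptor), IM2 cells were high for both, and IM3 cells had high MHC class II and low CD206. Alveolar macrophages (AM), the cells that patrol the airspaces, were sorted as CD11c+ Siglec F+ cells without CD103, CD11b, Gr1 or the same lymphoid proteins. Each population had 3 libraries (A, B and C), made from about 50000 sorted cells, and each library was sequenced in several runs that were summed. The labels do not say whether A, B and C were separate animals or pools, so p-values cover the spread between the libraries at hand, which may be technical. IM and AM were sorted with different gates, and gate and population cannot be told apart.

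Ribonucleases of this family are held together by disulfide bonds and cut single-stranded RNA outside the cell or inside vesicles. The eosinophil-associated ribonucleases (Ear) are a rodent group that expanded by gene duplication and is related to the human eosinophil granule proteins eosinophil-derived neurotoxin and eosinophil cationic protein. Ear1 and Ear2 are also widely used as transcripts of mouse alveolar macrophages. Angiogenin (Ang) promotes the growth of blood vessels and cuts tRNA in stressed cells, and Rnase4 is its neighbour and a ribonuclease that prefers to cut after uridine.

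All 6 genes lie on chromosome 14 (mm10, coordinates from the GENCODE M21 annotation), in clusters with the rest of the family. Ear1 occupies chr14:43818765-43875517 on the minus strand, Ear10 chr14:43922720-43923559 on the minus strand and Ear2 chr14:44102654-44103534 on the plus strand. Ang (chr14:51091077-51102007) and Rnase4 (chr14:51091077-51106151) start at the same base of the plus strand, and Ear6 lies further along at chr14:51853699-51854643. Each encoded protein held 1 match to the family signature, which is cysteine, lysine, any pair of residues, asparagine, threonine and phenylalanine. The lysine is a catalytic residue of ribonuclease A. The coding bases around the signature are printed in order to show how alike the Ear genes are where Rnase4 and Ang differ, with the signature codons in capitals and the strand of the gene read 5′ to 3′. They lie at chr14:43819197-43819241 in Ear1, chr14:44103055-44103099 in Ear2, chr14:51854166-51854210 in Ear6, chr14:43923156-43923200 in Ear10, chr14:51105010-51105054 in Rnase4 and chr14:51101578-51101622 in Ang.
Ear1: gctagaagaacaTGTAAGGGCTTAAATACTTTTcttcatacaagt
Ear2: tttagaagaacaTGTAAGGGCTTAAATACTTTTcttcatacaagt
Ear6: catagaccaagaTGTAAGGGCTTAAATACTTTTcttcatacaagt
Ear10: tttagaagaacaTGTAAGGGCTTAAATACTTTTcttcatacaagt
Rnase4: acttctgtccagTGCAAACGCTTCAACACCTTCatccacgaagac
Ang: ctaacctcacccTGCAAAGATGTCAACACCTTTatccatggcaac

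Over the whole coding sequence Ear2 was identical to Ear10 at 97.0% of bases and to Ear1 at 95.1%, and Ear1 to Ear10 at 94.4%. Ear6 was the more distant copy, with 87.3% to Ear1, 87.6% to Ear2 and 87.4% to Ear10. Rnase4 and Ang shared 54.2% of coding bases with each other and between 46.6% and 50.4% with the Ear genes. This likeness bears on every value given here, because reads that mapped to several places or fell in the exons of several genes were not counted. In stretches of 100 bases taken along the spliced transcripts, 23.9% of those in Ear1, 13.9% in Ear2, 24.2% in Ear10 and 0% in Ear6 were also found letter for letter in the transcript of another gene. For Ear1 the other gene was mostly the pseudogene Ear-ps9 and for Ear2 it was Ear10. With stretches of 50 bases the shares were 57.4% in Ear1, 41.5% in Ear2, 39.9% in Ear10 and 1.0% in Ear6. Rnase4 and Ang lost reads for another reason: 651 exonic bases belong to both genes, which is 32.6% of the 1996 exonic bases of Rnase4 and 51.1% of the 1273 of Ang. The levels of Ear1, Ear2, Ear10, Rnase4 and Ang therefore lack reads, and are lower limits only if no read was placed on a wrong copy. Such misplacement was not tested, and the division of reads between Ear1, Ear2 and Ear10 is uncertain.

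**Figure D1:**
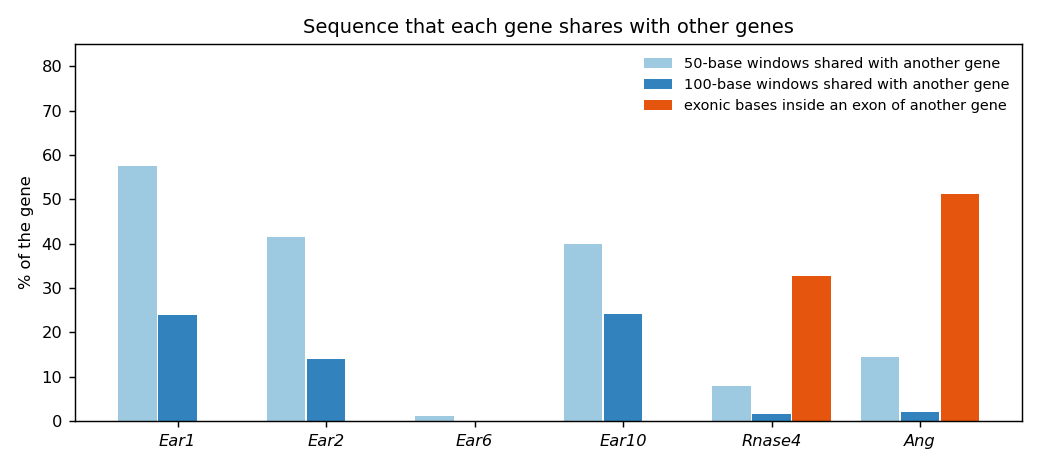
Percentage of each gene that it shares with other genes: stretches of 50 and of 100 bases of the spliced transcripts found in another gene (light and dark blue), and exonic bases inside an exon of another gene (orange). Ear6 shared 0% of its stretches of 100 bases, against 24.2% in Ear10, and the exon overlap is that of Rnase4 (32.6%) with Ang (51.1%).

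The promoters of the Ear genes are also near copies of each other. In the windows of 300 bases around the RefSeq gene starts (GRCm38.p6), Ear1 and Ear2 were identical at 294 of 297 aligned bases (99.0%). The other pairs among Ear1, Ear2, Ear6, Ear10 and Rnase2b lay between 91.5% and 93.4%. The Ear1 window, chr14:43819590-43819889, lies inside the span of the counted gene model, which on the minus strand starts at chr14:43875517. RefSeq and the counted model thus differ in the start of Ear1. Both strands were searched for GAGGAAGT (a PU.1 site), TTGCNNAA (a C/EBP site) and the letters AGATAA, which GATA factors bind, and no found match overlapped another. The C/EBP letters occurred once each in Ear1, Ear2, Ear10 and Rnase2b and were absent from Ear6, which has 7 of the 8 letters at that place. Of 32851 promoters, 10.8% held the C/EBP letters, 3.2% the PU.1 letters and 11.2% the GATA letters, and neither of these last 2 was found in the Ear promoters. The stretch of 67 bases around the C/EBP letters is shown because Ear6 lacks the full match there, with those letters in capitals. Outside those letters the stretch also differs between the genes, as in Ear10 and Rnase2b. It lies at chr14:43819696-43819762 (minus strand) in Ear1, chr14:44102533-44102599 (plus) in Ear2, chr14:43923655-43923721 (minus) in Ear10, chr14:51853625-51853691 (plus) in Ear6 and chr14:51162111-51162177 (plus) in Rnase2b. A match of letters is a description of sequence and does not show that a factor binds there.
Ear1: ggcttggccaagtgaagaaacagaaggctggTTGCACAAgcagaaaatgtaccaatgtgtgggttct
Ear2: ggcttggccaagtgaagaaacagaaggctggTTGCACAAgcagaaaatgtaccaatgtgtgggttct
Ear10: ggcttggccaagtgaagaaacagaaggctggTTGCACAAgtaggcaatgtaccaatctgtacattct
Ear6: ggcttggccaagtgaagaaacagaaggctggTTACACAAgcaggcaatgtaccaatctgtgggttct
Rnase2b: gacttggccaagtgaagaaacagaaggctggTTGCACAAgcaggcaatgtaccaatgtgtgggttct

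Rnase4 and Ang have 1 RefSeq promoter window in common, at chr14:51090827-51091126 on the plus strand, and it is printed because both genes are read from it. It held none of the 3 motifs. RefSeq lists a further start of Rnase4 at chr14:51095750-51096049, which held 1 match to the C/EBP letters.
Rnase4 and Ang: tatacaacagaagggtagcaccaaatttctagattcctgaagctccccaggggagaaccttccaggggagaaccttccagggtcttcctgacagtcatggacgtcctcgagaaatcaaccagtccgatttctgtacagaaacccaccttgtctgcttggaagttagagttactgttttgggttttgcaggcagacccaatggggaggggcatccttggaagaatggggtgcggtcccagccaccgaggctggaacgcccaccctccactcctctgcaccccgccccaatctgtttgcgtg

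The 12 libraries held between 11818981 and 15758326 reads assigned to genes. Of all entries in the deposited assignment counts, 71.06% to 77.6% were assigned, 10.65% to 14.78% mapped to several places and 3.89% to 4.76% fell in several genes. IM1 A was the shallowest library and stood apart from IM1 B and IM1 C, so the values of the 6 genes in IM1 are also given without it, apart from Ear6 and Ear10. Levels are CPM, read counts scaled to library size, after TMM scaling, and a count of 0 allowed up to 3 reads, or 0.189 to 0.262 CPM depending on the library. Limits and intervals speak of counting error alone, because no molecular identifiers were used. The 10 alveolar macrophage markers were lower in each interstitial population than in AM in 10 of 10 cases. The 10 interstitial macrophage markers were higher in 10 of 10. Of all genes tested, 25% to 26.2% were lower and 32.4% to 34.3% higher. Siglecf, Itgax and Itgam encode proteins of the sort gates. Others, such as Krt79 and Tmem176a, passed the filter only through the side where they were high. These counts are thus a description and no check of the labels. Markers of eosinophils, the cells for which the Ear genes are named, were low. The summed level of 7 markers was 1.04 to 6.5 CPM in IM1 and 0.281 to 0.315 CPM in IM2. It was 1.06 to 1.22 CPM in IM3 and 0.0702 to 0.368 CPM in AM. The granule genes Prg3 and Epx and the receptor gene Il5ra had 0 reads in all 4 populations. Alox15 was the highest of the 7 in IM1, with 132 reads and 0 to 6.3 CPM by library. Ccr3 had 21, 10 and 19 reads in IM1, IM2 and IM3 and 0 in AM. The granule gene Prg2 had 2 reads in IM1 and 0 elsewhere. Cebpe had 3, 2, 11 and 9 reads in IM1, IM2, IM3 and AM.

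The Ear genes were transcripts of alveolar macrophages, and Rnase4 and Ang were higher in the interstitial populations. Of the 3 genes that could enter the test without their AM reads, Ear2 fell and Rnase4 and Ang rose in IM1, in IM2 and in IM3. Ear1, Ear6 and Ear10 entered it through AM alone, so a difference from AM was fixed by the filter and they are described by their levels, without a p-value. AM differed widely from the interstitial populations, so that 58.8% of the 14095 genes tested passed in IM1 over AM (33.1% higher and 25.7% lower), 60.5% in IM2 over AM (34.3% higher and 26.2% lower) and 57.4% in IM3 over AM (32.4% higher and 25% lower). A pass as such is therefore common background, and the sizes below carry the description. The test was the quasi-likelihood F test of edgeR with Benjamini-Hochberg adjustment over all genes and a threshold of 0.05. Because the samples are bulk RNA, fewer cells with a transcript and less RNA per cell cannot be told apart. The 3 comparisons with AM share the AM libraries and are not independent of each other.

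**Figure D2:**
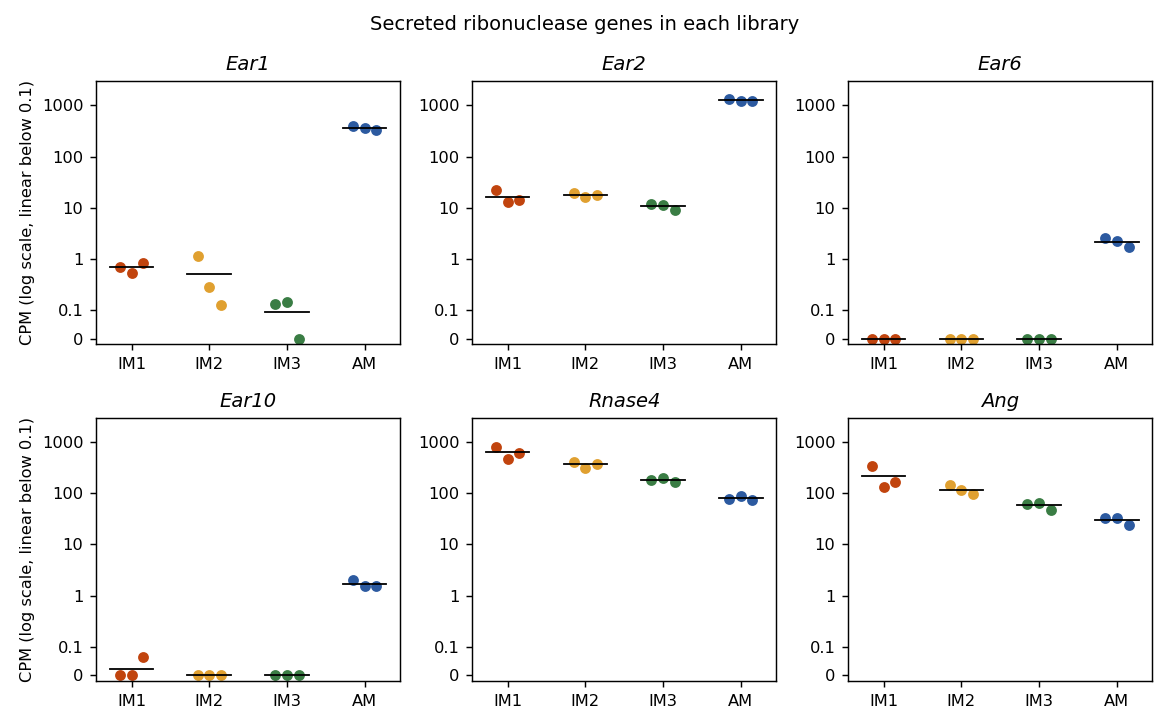
CPM of the 6 genes in each library (points) with the mean of each population (bar), on a log axis that is linear below 0.1. Ear1, Ear2, Ear6 and Ear10 were high in AM, with Ear2 at 1233 to 1365 CPM, and Rnase4 stepped down from IM1 over IM2 and IM3 to AM.

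Ear2 was the most abundant of the 6 genes in AM. It had 22.5, 12.9 and 14.3 CPM in IM1, 19.5, 16.5 and 17.5 CPM in IM2 and 11.6, 11.1 and 9.13 CPM in IM3, against 1365, 1233 and 1237 CPM in AM (libraries A, B and C). The AM libraries stood far above the 9 interstitial libraries, each of which still held between 135 and 278 Ear2 reads. The log2 fold change was -6.28 ± 0.21 (SE, adjusted p = 1.57e-12) in IM1 over AM and -6.16 ± 0.21 (adjusted p = 1.72e-12) in IM2 over AM, in the edgeR test. In IM3 over AM it was -6.91 ± 0.22 (adjusted p = 8.36e-13). Without IM1 A, the highest interstitial library, the value for IM1 was -6.56 ± 0.16 (adjusted p = 2.1e-16).

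Ear1, the near copy of Ear2, was lower than Ear2 in AM and almost unread in the interstitial populations. Its level was 0.699, 0.531 and 0.843 CPM in IM1, 1.13, 0.281 and 0.126 CPM in IM2 and 0.132, 0.147 and 0 CPM in IM3, against 403, 363 and 335 CPM in AM. These interstitial values rest on 8, 8 and 13 reads in IM1, 15, 4 and 2 in IM2 and 2, 2 and 0 in IM3, whereas the AM libraries had 4551 to 5759. No interstitial library came near the AM libraries. The fitted log2 fold change was -9.03 ± 0.36 (SE) in IM1 over AM, or -9.04 ± 0.37 without IM1 A. It was -9.53 ± 0.37 in IM2 over AM and -11.83 ± 0.44 in IM3 over AM, the last of which rests on 4 interstitial reads.

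Ear6 and Ear10 were rare transcripts even in AM. Ear6 had 0 reads in the 9 interstitial libraries and 36, 32 and 23 reads in AM A, B and C, or 2.52, 2.25 and 1.69 CPM. Its level was at least 30.2-fold lower in IM1, at least 31.3-fold lower in IM2 and at least 31.4-fold lower in IM3 than in AM, taking 3 reads over the population as the limit. Ear10, whose coding sequence is closest to Ear2, had 1 read in IM1, in library C, and none in IM2 or IM3, against 29, 22 and 21 reads in AM, or 2.03, 1.54 and 1.55 CPM. AM exceeded IM1 by a ratio of 71.7, with a wide 95% counting interval of 12.5 to 2871 from the exact binomial distribution. The level was at least 24.7-fold lower in IM2 and at least 24.8-fold lower in IM3. The Ear10 reads in AM amounted to 72, against 53863 for Ear2, and Ear10 shares 86 of its 579 stretches of 100 bases with Ear2. Whether some of them came from Ear2 was not tested.

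The summed levels of neutrophil and of epithelial markers were also higher in AM, as the Ear genes were, through a few genes. The 8 neutrophil markers came to 4.05 to 6.29 CPM in IM1, 1.75 to 2.46 CPM in IM2 and 0.927 to 1.76 CPM in IM3, against 70.5 to 89.8 CPM in AM, where Ly6g, S100a9, Ngp and Camp were at 0. Most of the AM sum was Mmp8, at 76.8 CPM. The 8 epithelial markers came to 26.1 to 38.7 CPM in IM1, 20.6 to 61.9 CPM in IM2 and 9.41 to 22.3 CPM in IM3, against 155 to 178 CPM in AM, where Sftpb was at 0. Cdh1 and Epcam made up 91.4 and 72.1 CPM of it on average, and fell over AM. The other epithelial markers tested ran the other way: 5 rose over AM in IM1 and in IM2, and 4 did in IM3. Of these, Sftpb, Sftpa1, Ager and Sftpc passed the filter through interstitial libraries alone, as Epcam did through AM alone. Their directions over AM were fixed by the filter, so these counts are a description only. The background was 33.1% of all genes rising in IM1, 34.3% in IM2 and 32.4% in IM3. The part of either set of markers in the Ear levels was not tested.

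Rnase4 ran the other way and was graded over the populations. Its level was 820, 470 and 611 CPM in IM1, 403, 315 and 379 CPM in IM2 and 183, 202 and 165 CPM in IM3, against 76.5, 89.8 and 73.9 CPM in AM. No library of 1 population overlapped with those of the next, in the order IM1, IM2, IM3 and AM. The log2 fold change over AM was 2.98 ± 0.19 in IM1 (edgeR adjusted p = 1.56e-09), 2.19 ± 0.18 in IM2 (adjusted p = 4.51e-08) and 1.19 ± 0.18 in IM3 (adjusted p = 3.17e-05). Without IM1 A, the highest library, the value for IM1 was 2.75 ± 0.14 (adjusted p = 5.54e-12).

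Ang, which begins at the same exons as Rnase4, had the same order. It stood at 345, 132 and 164 CPM in IM1, 143, 115 and 94.9 CPM in IM2 and 62.6, 65.9 and 47.7 CPM in IM3, against 32.6, 32.6 and 24.5 CPM in AM. IM1 A was far above the other libraries, and IM1 B lay within the range of IM2, while IM3 and AM overlapped with no neighbour. The log2 fold change over AM was 2.84 ± 0.30 in IM1 (edgeR adjusted p = 6.61e-07), 1.97 ± 0.29 in IM2 (adjusted p = 2.51e-05) and 0.97 ± 0.28 in IM3 (adjusted p = 0.00839). Without IM1 A the value in IM1 was 2.31 ± 0.18 (adjusted p = 3.97e-09). The coefficient of variation of Ang over the runs of an IM1 library was 0.809% to 2.09%, against 53.7% over the 3 libraries. The cause of the height of IM1 A was not tested.

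Fibroblast and endothelial markers and those of lung epithelium other than Cdh1 and Epcam moved with Rnase4 and Ang between the interstitial populations and AM. The summed level of 6 fibroblast markers was 34.3 to 103 CPM in IM1, 86.6 to 111 CPM in IM2 and 59.0 to 103 CPM in IM3, against 0 to 0.35 CPM in AM. That of 6 endothelial markers was 29.8 to 58.7 CPM in IM1, 29.7 to 38.9 CPM in IM2 and 39.5 to 45.3 CPM in IM3, against 0 to 0.0736 CPM in AM. In AM the fibroblast markers Col1a1, Col1a2, Col3a1, Dcn and Lum and the endothelial markers Cdh5, Cldn5, Kdr, Tek and Emcn were at 0. No marker of these lists was at 0 in an interstitial population. Of the epithelial genes, Sftpc had 11.6 CPM in IM1, 17.2 CPM in IM2 and 7.42 CPM in IM3, against 0.351 CPM in AM. Scgb1a1, the secretoglobin of club cells, had 6.27 CPM in IM1, 4.37 CPM in IM2 and 1.12 CPM in IM3, against 0.594 CPM in AM, and so had the order of Rnase4 and Ang. Of the endothelial markers, Cdh5, Cldn5, Kdr, Tek and Emcn stood in the order IM1, IM2, IM3 by their means, of which Cldn5 passed in IM1 over IM3 (1.23 ± 0.30, edgeR adjusted p = 0.00992), while Pecam1 was highest in IM3 at 23 CPM. The part of these markers in the levels of Rnase4 and Ang was not tested.

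**Figure D3:**
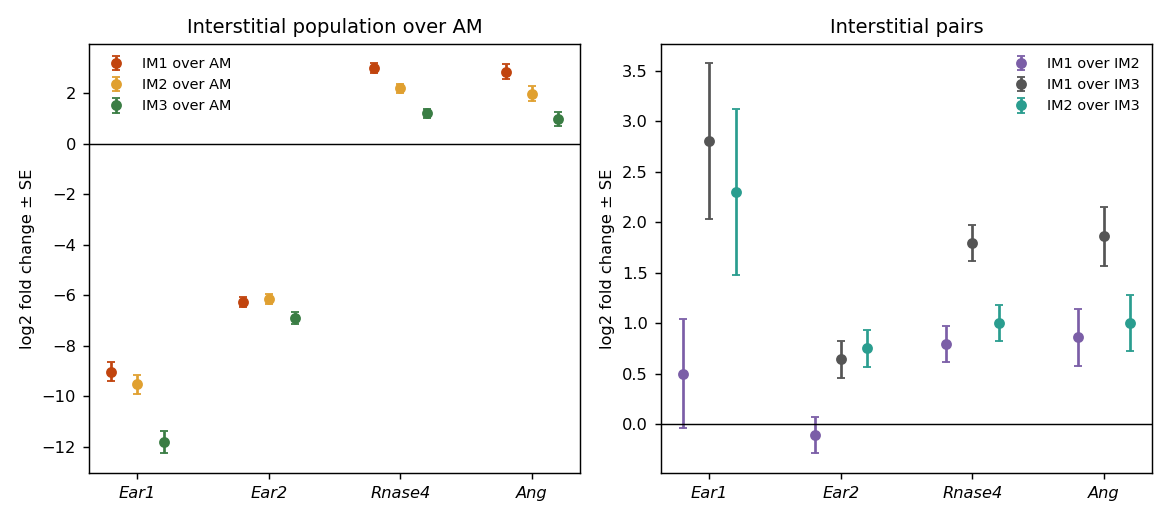
log2 fold changes of Ear1, Ear2, Rnase4 and Ang with their SE from the edgeR fit, for each interstitial population over AM (left) and for the interstitial pairs (right). Over AM, Ear1 and Ear2 lie below 0 and Rnase4 and Ang above it, and among the pairs Rnase4 and Ang have their largest values in IM1 over IM3 (1.79 and 1.86).

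Among the interstitial populations, Rnase4 and Ang were highest in the CD206-high, MHC class II-low IM1 cells and lowest in the CD206-low IM3 cells. In IM1 over IM3, 4 of the 6 genes passed, each of them higher in IM1 (Ear1, Ear2, Rnase4 and Ang), where 24.4% of the genes tested passed and 12.7% were higher in IM1. In IM2 over IM3, 3 passed, each higher in IM2 (Ear2, Rnase4 and Ang), beside a background of 11.4% passing and 6.49% higher and 4.94% lower in IM2. In IM1 over IM2, Rnase4 alone passed, beside a background of 1.71% passing and 0.49% higher in IM1. The pairs share libraries, so these counts are not independent.

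For Rnase4 the log2 fold change was 1.79 ± 0.18 in IM1 over IM3 (edgeR adjusted p = 2.63e-06), 1.00 ± 0.18 in IM2 over IM3 (adjusted p = 0.00115) and 0.79 ± 0.18 in IM1 over IM2 (adjusted p = 0.0307). The first 2 passed with any single library left out, and IM1 over IM3 was 1.56 ± 0.14 without IM1 A (adjusted p = 1.09e-07). The step between IM1 and IM2 is less firm: it missed the threshold without IM1 C, IM2 A, IM2 B or IM2 C, with adjusted p between 0.0511 and 0.17, and held without IM1 A at 0.57 ± 0.14 (adjusted p = 0.0448).

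For Ang the log2 fold change was 1.86 ± 0.29 in IM1 over IM3 (edgeR adjusted p = 0.000176) and 1.00 ± 0.28 in IM2 over IM3 (adjusted p = 0.0283). IM1 over IM3 held without IM1 A at 1.34 ± 0.18 (adjusted p = 1.77e-05). IM2 over IM3 missed the threshold without IM2 A (0.124), IM2 B (0.059), IM3 A (0.0698), IM3 B (0.0604) or IM3 C (0.123), the values in brackets being adjusted p. In IM1 over IM2 it was 0.86 ± 0.28, with an adjusted p of 0.148 in the edgeR fit. With the replicate letter as a block the value was 0.81 ± 0.20 and passed (adjusted p = 0.0483), and without IM1 B it was 1.11 ± 0.25 and passed (adjusted p = 0.0107). Without IM1 A it was 0.34 ± 0.18 (adjusted p = 0.5).

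Rnase4 and Ang kept a similar proportion to each other. For each Ang read there were 2.38 to 3.72 Rnase4 reads in IM1, 2.74 to 3.99 reads in IM2 and 2.92 to 3.47 in IM3, beside 2.34 to 3.01 in AM. IM1 A had 2.38, near the lowest of these, since it was raised more in Ang than in Rnase4. The mean log2 ratio was 1.65 ± 0.24 in the 9 interstitial libraries and 1.43 ± 0.18 in the 3 AM libraries (SD), a difference of 0.22, and the ranges overlapped. Reads from the exons common to both genes are absent from both sides of this ratio.

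Ear2 was read in each interstitial library, and its level there was lower in IM3 than in IM1 and IM2. The log2 fold change was 0.64 ± 0.18 in IM1 over IM3 (edgeR adjusted p = 0.0189), 0.75 ± 0.18 in IM2 over IM3 (adjusted p = 0.0118) and -0.11 ± 0.18 in IM1 over IM2 (adjusted p = 0.765). These small differences depend on single libraries: IM1 over IM2 gave -0.39 ± 0.13 without IM1 A (adjusted p = 0.2), IM1 over IM3 missed the threshold without IM1 A (0.36 ± 0.13, adjusted p = 0.0635) or IM3 C (0.54 ± 0.21, adjusted p = 0.0887), and IM2 over IM3 missed it without IM2 A (adjusted p = 0.0507) or IM3 C (adjusted p = 0.0654).

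Ear1 had 29 reads in IM1, 21 in IM2 and 4 in IM3. Its log2 fold change was 2.80 ± 0.77 in IM1 over IM3 (edgeR adjusted p = 0.0146), 2.30 ± 0.82 in IM2 over IM3 (adjusted p = 0.0902) and 0.50 ± 0.54 in IM1 over IM2 (adjusted p = 0.651). Of the 21 reads in IM2, 15 were in library A. Without IM1 A, IM1 over IM3 gave 2.79 ± 0.84 (adjusted p = 0.028) and IM1 over IM2 gave 0.49 ± 0.60 (adjusted p = 0.839). Without IM1 C the first of these missed the threshold (adjusted p = 0.0503), as it did without IM3 C (adjusted p = 0.0602). IM2 over IM3 passed without IM2 C (2.80 ± 0.71, adjusted p = 0.0237). At so few reads the neighbouring interstitial populations overlapped.

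The proportion of Ear2 to Ear1 was not the same inside and outside the airspace population. There were 32.1, 24.2 and 17 Ear2 reads for each Ear1 read in IM1 A, B and C, 17.3, 58.8 and 139 in IM2, and 87.5 and 75.5 in IM3 A and B, against 3.38, 3.40 and 3.69 in AM. IM3 C had 135 Ear2 reads and no Ear1 read. Pooled over the libraries of a population, the ratio was 23.2 in IM1 (95% exact binomial interval 16 to 34.9), 36.8 in IM2 (23.9 to 59.7) and 115 in IM3 (44.7 to 425), beside 3.48 in AM (3.42 to 3.54). The mean of the log2 ratio, with 0.5 added to each count, was 5.58 ± 1.34 in the 9 interstitial libraries and 1.8 ± 0.07 in the 3 AM libraries (SD). The difference was 3.77, and each of the 9 interstitial libraries lay above each AM library. This ratio was chosen after the levels had been seen, so it is given without a test. Reads dropped as shared between copies, or placed on a wrong copy, may enter the ratio, and their part in it was not tested.

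The residual levels of Ear1 and Ear2 in the interstitial populations were set beside those of alveolar macrophage markers. Leaving out Siglecf and Itgax, which encode the gated proteins Siglec F and CD11c, 8 markers stood at a median of 0.528% of their AM level in IM1, 0.289% in IM2 and 0.0985% in IM3. Ear1 stood at 0.188% of its AM level in IM1, 0.139% in IM2 and 0.0253% in IM3, within the range of the markers in each population, whose lowest was Krt79 at 0.161%, 0.07% and 0.0123%. Ear2 stood at 1.29% in IM1, 1.40% in IM2 and 0.829% in IM3. That was above 7 of the 8 markers in each population, the exception being Pparg, a transcription factor gene, at 6.98%, 7.72% and 23.1%. Whether the residual reads came from alveolar macrophages was not tested.

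**Figure D4:**
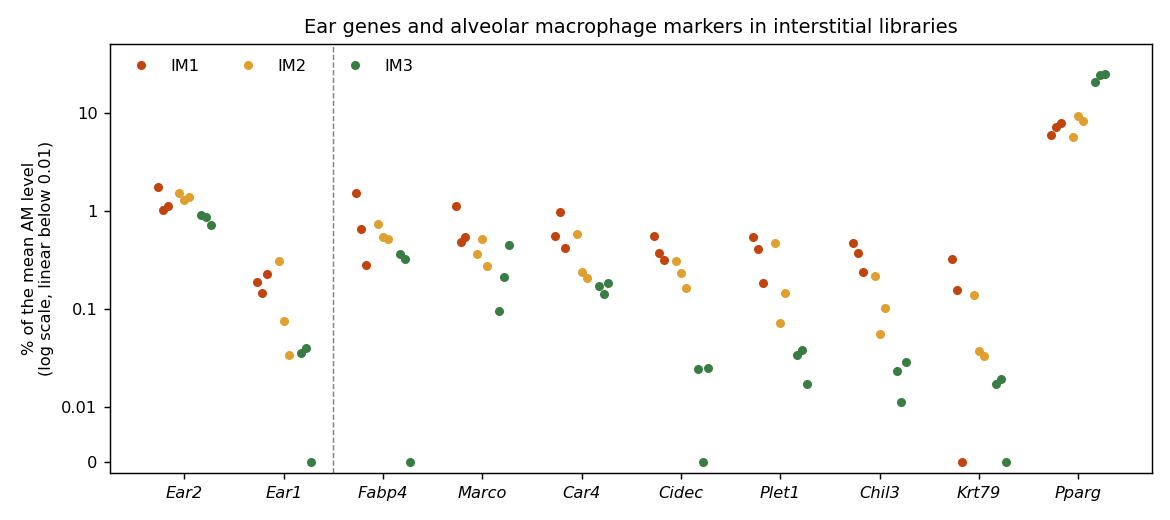
Level of Ear2, Ear1 and 8 alveolar macrophage markers in each interstitial library as a percentage of the mean AM level, on a log axis that is linear below 0.01, with points coloured by population. Ear2 averaged 0.829% to 1.40% over the populations and in this mean lay above the markers other than Pparg, whereas Ear1 averaged 0.0253% to 0.188% and lay among them.

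Levels of different genes can be set beside each other only per length, as RPKM, which divides CPM by the exonic length. In AM, Ear2 had 1778 ± 104 RPKM and Ear1 503 ± 47.1 RPKM (SD, n = 3 each), followed by Rnase4 at 40.1 ± 4.29 RPKM and Ang at 23.5 ± 3.66 RPKM. Ear10 had 2.52 ± 0.41 RPKM and Ear6 2.28 ± 0.45 RPKM. In IM1, Rnase4 led with 318 ± 88.2 RPKM, before Ang with 168 ± 90.2 RPKM and Ear2 with 23 ± 7.18 RPKM. Per length the leading transcript was thus Ear2 in AM and Rnase4 in IM1, and Rnase4 led in IM2 and IM3 as well. IM2 had 183 ± 22.9 RPKM of Rnase4, 92.4 ± 19.2 RPKM of Ang and 24.8 ± 2.13 RPKM of Ear2. In IM3 these were 91.8 ± 9.10 RPKM for Rnase4, 46.1 ± 7.61 RPKM for Ang and 14.7 ± 1.8 RPKM for Ear2. Since the uncounted parts differ between genes, the order of genes holds for the counted reads.

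Of 34 other symbols of the family that were looked for, 23 were in the table and 4 passed the filter: Rnase6, Rnase2a, Rnase2b and the pseudogene Ear-ps9. Over AM, Rnase6 fell in IM1, IM2 and IM3. Rnase2b and Ear-ps9 passed the filter through AM alone, and Rnase2a through IM1 and IM2 alone. All of these are described by their reads and levels. The pseudogene Ear-ps9, which lies within the span of Ear1 and shares sequence with it, had 4 reads in IM1 and 0 in IM2 and IM3, against 174 reads in AM. The others had at most 39 reads over the 12 libraries, a count reached by Rnase12. Rnase1, Rnase9, Rnase10, Rnase13, Ang4, Ang5, Ear-ps3, Ear-ps4 and Ear-ps10 had 0.

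Rnase6, a ribonuclease of macrophages and other white cells that can kill bacteria, ran against Rnase4 and Ang along the interstitial populations. It had 8.56, 4.51 and 5.58 CPM in IM1, 9.64, 11.6 and 13.1 CPM in IM2 and 27.5, 29.6 and 29.8 CPM in IM3, against a mean of 52.0 ± 2.35 CPM in AM (SD, n = 3). The 4 populations did not overlap. The log2 fold change was -3.08 ± 0.20 in IM1 over AM (edgeR adjusted p = 2.89e-09), -2.18 ± 0.19 in IM2 over AM (adjusted p = 8.87e-08) and -0.84 ± 0.18 in IM3 over AM (adjusted p = 0.000966). Among the interstitial pairs it was -2.23 ± 0.20 in IM1 over IM3 (adjusted p = 8.5e-07) and -1.34 ± 0.19 in IM2 over IM3 (adjusted p = 0.000168). IM1 over IM2 gave -0.90 ± 0.20 (adjusted p = 0.0351), a call lost without IM1 C (0.149), IM2 B (0.125) or IM2 C (0.143), and with only the 6 libraries compared (0.324). Without IM1 A the value in IM1 was -3.36 ± 0.18 over AM, -2.52 ± 0.18 over IM3 and -1.18 ± 0.18 over IM2 (adjusted p = 1.24e-11, 7.07e-09 and 0.00114).

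Rnase2a, listed by RefSeq under the synonym Ear11, was an Ear gene with the opposite preference. It had 3.15, 0.398 and 0.908 CPM in IM1, 3.01, 1.19 and 2.02 CPM in IM2 and 0.0662, 0.22 and 0.0677 CPM in IM3, against 0.0701, 0 and 0.295 CPM in AM. These levels rest on 56 reads in IM1, 89 in IM2, 5 in IM3 and 5 in AM, and both CD206-high populations lay above the others in each library. Rnase2a passed the filter through IM1 and IM2 alone, so their difference from AM and IM3 was fixed by the filter. Its fitted values are therefore given without a p-value. The log2 fold change was 3.5 ± 0.93 in IM1 over AM, 4.02 ± 0.90 in IM2 over AM and -0.04 ± 1.27 in IM3 over AM. It was 4.06 ± 0.90 in IM2 over IM3 and 3.54 ± 0.92 in IM1 over IM3. The last was 2.42 ± 0.89 without IM1 A.

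Rnase2b, with the synonym Ear5, had the pattern of Ear6. It had 0 reads in the 9 interstitial libraries and 269 in AM, where its level was 6.39 ± 1.87 CPM (SD, n = 3). The level was at least 89.3-fold lower in IM1, at least 92.4-fold lower in IM2 and at least 92.7-fold lower in IM3. Rnase2a and Rnase2b were identical at 83.7% of coding bases and, in IM1 and IM2, were found on opposite sides of the comparison with AM.

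**Figure D5:**
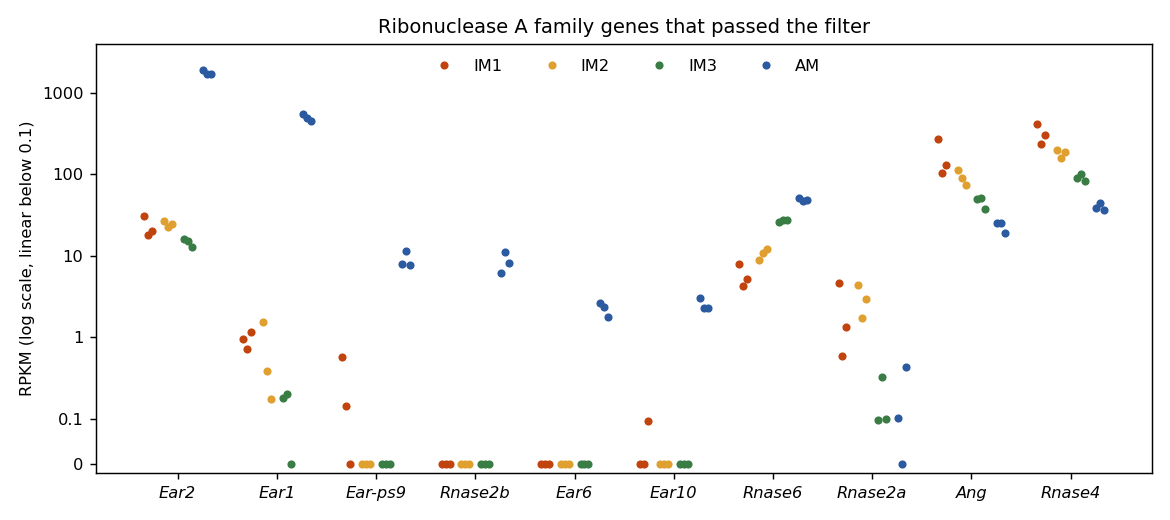
RPKM of the 10 ribonuclease A family genes that passed the filter, in each library (points), on a log axis that is linear below 0.1, with colours for the populations. Ear2, Ear1, Ear-ps9, Rnase2b, Ear6 and Ear10 were highest in AM, Rnase6 was lowest in IM1 and highest in AM, and Ang and Rnase4 were highest in IM1.

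Genes that act with these ribonucleases differed too. Rnh1, the cytosolic inhibitor that binds ribonucleases of this family, had 138 ± 13.5 CPM in IM1, 110 ± 14.2 CPM in IM2 and 124 ± 3.92 CPM in IM3, against 552 ± 32.1 CPM in AM (SD, n = 3). Its log2 fold change over AM was -2.00 ± 0.13, -2.33 ± 0.13 and -2.16 ± 0.13 in that order (edgeR adjusted p = 1.55e-09, 2.88e-10 and 7.39e-10), so the inhibitor was highest where Ear1 and Ear2 were. Without IM1 A the value in IM1 was -2.07 ± 0.13. Plxnb2, a receptor for angiogenin, was higher in the interstitial populations, with 519 ± 207 CPM in IM1, 666 ± 80.1 CPM in IM2 and 476 ± 91.6 CPM in IM3, against 168 ± 9.08 CPM in AM. Its log2 fold change over AM was 1.63 ± 0.23, 1.99 ± 0.23 and 1.5 ± 0.23 (edgeR adjusted p = 1.72e-05, 2.15e-06 and 3.87e-05), and 1.87 ± 0.17 in IM1 without IM1 A. Tlr2, the receptor through which human eosinophil-derived neurotoxin can activate dendritic cells, fell over AM with log2 fold changes of -1.05 ± 0.15 in IM1, -1.02 ± 0.15 in IM2 and -0.84 ± 0.15 in IM3 (edgeR adjusted p = 2.33e-05, 2.96e-05 and 0.000205). In the interstitial pairs the adjusted p-values of these 3 genes lay between 0.205 (Rnh1 in IM1 over IM2) and 0.939 (Tlr2 in IM1 over IM2) in the same test.

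Of 6 endolysosomal nucleases, which digest nucleic acids after uptake, 4 rose and 1 fell over AM in IM1 and in IM2, and 3 rose and 2 fell in IM3, with a median log2 fold change of 1.13, 0.92 and 0.57 beside 0.12, 0.11 and 0.09 over all genes. A share of 33.1% of all genes rose and 25.7% fell in IM1, 34.3% and 26.2% in IM2, and 32.4% and 25% in IM3. Dnase1l3, a DNase that cuts DNA in particles, had 149 reads in IM1, 412 in IM2 and 629 in IM3 but 0 in AM. It was at least 49.9-fold, 133-fold and 203-fold higher in that order. Dnase1l3 passed the filter through interstitial libraries alone. Its rise over AM was thus fixed by the filter, and it enters the counts and medians above. Rnaset2a and Rnaset2b, near-identical copies of a ribonuclease of another family, followed the order of Rnase4: Rnaset2b had 64.9 ± 17.2 CPM in IM1, 44.8 ± 6.38 CPM in IM2 and 28.2 ± 3.86 CPM in IM3, against 20.9 ± 1.35 CPM in AM. Its log2 fold change over AM was 1.63 ± 0.19 in IM1 and 1.10 ± 0.19 in IM2, which passed (edgeR adjusted p = 1.82e-06 and 0.000102), and 0.43 ± 0.19 in IM3, which did not (adjusted p = 0.0597). The copies may share reads, so the division between them is uncertain. Pld3, an exonuclease of lysosomes, was the nuclease that fell most, with log2 fold changes of -2.41 ± 0.12 in IM1, -2.71 ± 0.12 in IM2 and -2.89 ± 0.12 in IM3 over AM (edgeR adjusted p = 1.02e-10, 3.21e-11 and 1.94e-11). Dnase2a, the DNase of lysosomes, fell in IM3 over AM (-0.62 ± 0.13, adjusted p = 0.0009). The relative of Pld3, Pld4, rose by 0.64 ± 0.12, 0.75 ± 0.12 and 0.78 ± 0.12 (adjusted p = 0.00029, 6.56e-05 and 4.77e-05).

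Of 10 genes of endosomal RNA and DNA sensing, 4 rose and 3 fell in IM1 over AM, and 5 rose and 3 fell in IM2 and in IM3. Their median log2 fold change of 0.17, 0.28 and 0.22 lay near that of all genes. The background over AM was 33.1% of all genes rising and 25.7% falling in IM1, 34.3% and 26.2% in IM2, and 32.4% and 25% in IM3. Tlr9, the DNA receptor, and Unc93b1, the chaperone that brings such receptors to endosomes, had the largest rises. Unc93b1 had 2725 ± 298 CPM in IM1, 2679 ± 327 CPM in IM2 and 2426 ± 148 CPM in IM3, against 881 ± 34.5 CPM in AM. Tlr9 had 82, 132 and 179 reads in IM1, IM2 and IM3, against 5 in AM. It passed the filter through interstitial libraries alone, so its rise, which is among those counted, was fixed by the filter. The adaptor gene Myd88 was lower, with log2 fold changes of -1.02 ± 0.14 in IM1, -1.14 ± 0.14 in IM2 and -1.14 ± 0.14 in IM3 over AM (edgeR adjusted p = 1.05e-05, 3.07e-06 and 3.59e-06). The transporter gene Slc15a3 fell by 1.58 ± 0.16, 1.44 ± 0.15 and 0.54 ± 0.15 in the same order (adjusted p = 3.23e-07, 8.34e-07 and 0.00635). The RNA receptor gene Tlr8 fell by 0.80 ± 0.19, 0.49 ± 0.19 and 1.16 ± 0.19 (adjusted p = 0.00169, 0.0334 and 7.22e-05), and its call in IM2 was lost without IM2 A, IM2 C or any 1 of the AM libraries.

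Other secreted host defence proteins were split too. Of 20 listed genes 10 passed the filter. Over AM, 4 rose and 6 fell in IM1 and in IM2, while 3 rose and 7 fell in IM3. Retnla and Sftpd passed the filter through interstitial libraries alone, and Chil4 and Wfdc21 through AM alone. Their directions over AM were fixed by the filter, so these counts are a description only. Among all genes tested, 33.1% rose and 25.7% fell in IM1, 34.3% and 26.2% in IM2, and 32.4% and 25% in IM3. The chitinase-like Chil3 had 185 ± 60.0 CPM in IM1, 64.8 ± 43.4 CPM in IM2 and 11 ± 4.65 CPM in IM3, against 51276 ± 3306 CPM in AM (log2 fold change -8.11 ± 0.52, -9.63 ± 0.55 and -12.19 ± 0.61, edgeR adjusted p = 1.85e-09, 4.77e-10 and 1.08e-10), and -8.36 ± 0.80 in IM1 without IM1 A. Chil4, its near copy, had 7, 2 and 3 reads in IM1, IM2 and IM3, against 2274 in AM. Slpi, an inhibitor of proteases, came second among the falls in IM3, with 7 reads there against 7404 in AM. Retnla, the RELM alpha gene, had 17995, 33021 and 1806 reads in the 3 interstitial populations, against 0 in AM, which makes it at least 6022-fold, 10678-fold and 582-fold higher. Sftpd, the gene of a surfactant collectin, was the second of the rises, at 41, 37 and 14 reads against 0. It was thus at least 13.7-fold, 12-fold and 4.51-fold higher. The epithelial marker Sftpc rose over AM too, and whether the few Sftpd reads came from epithelial cells was not tested. In IM1 over IM3, 6 of the 10 host defence genes tested passed, each higher in IM1. The background there was 24.4% of all genes passing and 12.7% higher in IM1.

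To place the 6 genes among all others, the genes with the most similar profile were found by the root mean square difference of log2 CPM over the 12 libraries, after each gene was centred on its own mean. The measure gives no more than likeness of level in these libraries. Closest to Ear1 were Plet1 (0.59), Krt19 (0.61) and Cidec (0.69). Ear2 was closest to F10 (0.32), Cxcr1 (0.36) and Ffar2 (0.38), of which Cxcr1 and Ffar2 had 0 CPM in the interstitial populations. Ear6 was closest to Esrrg (0.07), Alppl2 (0.07) and Ovol2 (0.11), and Ear10 to Gsr (0.20), Esrrg (0.20) and Tcf7l2 (0.21). Genes at or near 0 reads in the interstitial libraries, as Ear6 and Ear10 were, have profiles set by the prior count of 2 there. Gsr, with 36.9, 30.3 and 40.1 CPM in IM1, IM2 and IM3 against 481 CPM in AM, is such a match in form only. The gene nearest to Rnase4 was Ang, and the reverse, at 0.23. After it came Snx8 (0.25), Fez2 (0.26) and Pkp4 (0.26) for Rnase4, and Wfdc17 (0.26), Ly96 (0.26) and Card19 (0.28) for Ang. Wfdc17, a gene of a small secreted whey acidic protein, had 71.1 CPM in IM1, 44.4 CPM in IM2 and 24.5 CPM in IM3, against 9.15 CPM in AM on average.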

How the data were processed

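Alignment used STAR 2.5.1b and mm10, per the submitters' processing notes, and the deposited counts were made with featureCounts of Subread 1.5.0-p1, unstranded, on Ensembl 78 gene models without multimapping or multi-gene reads, per the file headers. The 38 deposited runs were summed to 12 libraries. The percent assigned was computed from the deposited assignment counts, over the sum of all their entries. Of 43346 identifiers 42462 (98.0%) had a symbol in GENCODE M21. Counts were tested with edgeR 4.0.16 under R 4.3.3 (TMM, filterByExpr with minimum count 10, robust quasi-likelihood F test, 8 residual degrees of freedom), with 1 fit of all 12 libraries and adjustment over 14095 genes. The script was checked on simulated counts. CPM and RPKM were computed from the deposited counts, the gene lengths and TMM factors. DESeq2 1.42.0 was an alternative. Sequences came from RefSeq (GRCm38.p6) and GENCODE M21 transcripts, since no genome was used here. Stretches of 50 and 100 bases were therefore compared over transcripts.

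The 6 genes and all lists were chosen with earlier results of these data known. Named were the 6 genes, each other family gene that passed the filter, the partners, from each list the genes with the largest changes over AM in each direction, and the 3 genes of most similar profile. Replicate letters deviated together in IM1 and IM2 (correlations of 0.26, 0.17 and 0.29 for A, B and C). They did so in IM2 and IM3 as well (0.19, 0.14 and 0.16). This is a hint of pairing from the data and not from the labels. The main fit did not use the letters, so its p-values for these pairs of populations ignore such a pairing. The letter as a block was an alternative.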

Additional observations from a re-analysis of the deposited data

How the results depend on the processing

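Alternatives were upper quartile and RLE scaling, DESeq2, no filter on low counts, only the 6 libraries compared, the replicate letter as a block, and leaving out each library. Over AM, the 18 fold changes of the 6 genes kept their direction and their call in 216 of 216 recomputed values, which for Ear1, Ear6 and Ear10 says nothing about stability since they were tested through AM alone, and 64 results of other named genes did so in 757 of 765, with 8 losing the call (Tlr8 in IM2 and Rnaset2a in IM3). The same limit holds for other named genes that passed the filter through the higher side alone, such as Rnase2a, Rnase2b and Ear-ps9. Upper quartile scaling moved the median of all genes over AM to 0.18, 0.14 and 0.12 on the log2 scale in IM1, IM2 and IM3. The main values were 0.12, 0.11 and 0.09. Among the interstitial pairs, 12 results of the 6 genes gave 141 values, of which 117 kept direction and call, 17 lost a call, 5 gained one and 2 reversed. The reversals were of values that had not passed: Ear2 in IM1 over IM2 gave 0.03 without IM1 B and ranged down to -0.39 with another library left out, and Ear1 there gave -0.01 without IM2 C and up to 1.74 with another left out.

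In IM1 over IM2, 241 genes passed, against 591 with DESeq2, 941 without the filter, 392 with the replicate block, 71 with only the 6 libraries and 110 to 1904 with a library left out. The highest of these came without IM1 B. Of the 6 genes, 1 passed there, against 2 without the filter, 2 with the replicate block, 0 with only the 6 libraries (edgeR adjusted p = 0.201 for Rnase4) and 0 to 2 with a library left out. In IM1 over IM3, 3445 genes passed, against 2268 with only the 6 libraries, and of the 6 genes 4 passed, against 2 with only the 6 libraries, where Ear1 was removed by the filter and Ear2 lost its call (adjusted p = 0.1), and 2 to 4 with a library left out. In IM2 over IM3, 3 passed, against 1 to 4 with a library left out. Fitting 6 libraries leaves fewer residual degrees of freedom, and the other causes were not tested. The block changed no other call of the 6 genes.

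The fit assumes 1 spread for all populations. The chi-square per degree of freedom between replicates was 19.38 to 81.34 in IM1, 14.59 to 23.43 in IM2, 12.25 to 15.62 in IM3 and 8.67 to 12.48 in AM, so p-values that involve IM1 can be too small. Depth limits Ear1, Ear6 and Ear10 in the interstitial libraries, where 3 reads are 0.189 to 0.262 CPM.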
